A study of Homo sapiens with 11 samples.

Results

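Clearance of dying cells and of shed photoreceptor tips depends on a short chain of proteins, and 7 genes of that chain were followed across the series: the TAM receptor genes MERTK, AXL and TYRO3, the bridging ligand genes GAS6, PROS1 and MFGE8, and the scavenger receptor gene CD36. They were taken by symbol from the 60605 genes listed in the deposited table. All 7 were among the 18828 genes tested, those with a normalised count of at least 10 in at least 2 of the 11 libraries. CD36 met that filter only through its 2 Sox2 libraries and 1 GFP library, so it had to vary to be tested. RNA with poly(A) tails was sequenced from ARPE-19 cells, an established human retinal pigment epithelium (RPE) line, carrying stable constructs that had been expressed for 4 days. The constructs encoded GFP in the control (3 libraries), Oct4, Sox2 or Klf4 alone (2 libraries each), or Oct4, Sox2 and Klf4 together (OSK, 2 libraries). Neither the promoter, the species of the open reading frames nor whether a line is clonal is stated in the labels. The library names of the 4 factor lines carry the tag mC, which the GFP names lack and the labels do not explain. Nothing in the labels says that libraries of 1 line came from separate cultures, so the p-values measure only the spread between these libraries.

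TAM receptors are receptor tyrosine kinases that do not touch the dying cell directly. The secreted proteins GAS6 and protein S (PROS1) bind phosphatidylserine on the target through a vitamin K-dependent Gla domain and bind a TAM receptor through their other end. Protein S activates TYRO3 and MERTK, GAS6 activates all of them, and AXL answers to GAS6 alone. MFGE8 bridges phosphatidylserine to the integrins αvβ3 and αvβ5, and CD36 binds oxidised lipids and thrombospondin. In the RPE, integrin αvβ5 with MFGE8 takes part in the binding of shed outer segments, and MERTK drives their ingestion. Loss of MERTK causes retinal degeneration in people and rats.

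Upstream stretches are shown for MERTK, which passed the test in every factor line, as AXL and PROS1 also did. They are also shown for GAS6, whose start lies close to that of a divergent transcript described further on. They come from RefSeq promoter entries (GRCh38.p14), run 5′ to 3′ on the strand of the gene, and end where the transcript starts or where an annotated exon of the gene begins. Capitals mark the GC box letters GGGCGG on either strand.
MERTK, chr2:111898357-111898478, plus strand: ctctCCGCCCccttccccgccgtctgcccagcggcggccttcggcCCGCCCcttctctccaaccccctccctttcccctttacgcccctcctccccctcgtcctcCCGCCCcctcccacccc
GAS6, chr13:113864077-113864326, minus strand: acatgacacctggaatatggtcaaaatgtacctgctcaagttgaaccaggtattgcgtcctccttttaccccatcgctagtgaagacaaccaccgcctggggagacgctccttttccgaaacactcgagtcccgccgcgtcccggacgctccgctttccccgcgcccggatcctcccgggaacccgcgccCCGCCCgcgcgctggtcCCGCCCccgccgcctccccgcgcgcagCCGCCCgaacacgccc
Each stretch, of 122 and 250 bases, holds 3 GC boxes, and these letters occur in 42.6% of the 35116 RefSeq windows of 250 bases before a gene start. The members have 15 RefSeq starts between them. The octamer ATGCAAAT (1.63% of windows) and the SOX letters ACAATG (9.29%) were found before none of the 15 starts, on either strand. The KLF letters GGGNGTGG (15.7% of windows) stood before 1 start each of AXL and MFGE8 and 2 starts of CD36, and before no start of TYRO3. A match or its absence describes only these letters in these windows.

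The libraries held 15053300 to 19791775 reads assigned to genes. The delivered factors matched the labels: POU5F1 (Oct4) was at 66823 and 67326 normalised counts in the Oct4 libraries, 19020 and 19542 in OSK, and 446 or less elsewhere. SOX2 was at 29106 and 29141 in Sox2, 17582 and 17764 in OSK, and 197.4 or less elsewhere, and KLF4 was at 22142 and 24205 in Klf4, 24202 and 24470 in OSK, and 248.49 or less elsewhere. GFP replicate 1 and OSK replicate 1 stood apart, with at least 1 read in 42956 and 32493 listed genes against 25853 to 26971 in the others. Among 405 olfactory receptor genes, the share with a read was 67.7% in the former, 23.0% in the latter and 4.94 to 8.15% elsewhere, so results that depend on either library are also given without it. Of 15 RPE markers, RPE65, DCT and TTR were too low to test. The summed RPE marker level was 33573 to 37258 in GFP, 18520 to 19090 in Oct4, 21516 to 22199 in Sox2, 26139 to 29295 in Klf4 and 16032 to 16315 in OSK. Most of it was KRT8 and KRT18, which summed to 18985 to 19611 in Sox2. Of the 12 tested RPE markers 9 were lower and 1 higher with Oct4, 6 and 0 with Sox2, 4 and 2 with Klf4, and 10 and 1 with OSK. Over all tested genes, the shares lower at an adjusted p under 0.05 were 17.2%, 19.9%, 16.0% and 20.0% in that order. The shares higher were 20.1%, 21.7%, 17.6% and 19.7%. RDH5 averaged 75.1 in GFP, 189 in Oct4, 74.7 in Sox2, 462 in Klf4 and 178 in OSK. The pigment genes fell furthest with Sox2, PMEL by 5.23, TYR by 5.03 and TYRP1 by 4.21. These markers moved with the lines, and their part in the results below was not tested. The leukocyte gene PTPRC had at most 3 reads in every library, and the 8 macrophage markers summed to 49.5 to 293 normalised counts.

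Against GFP, 5 of the 7 members passed the test in each factor line, but they were not the same ones and seldom moved the same way. Changes are log2 differences of (normalised count + 1) from limma, with the standard error (SE) and a Benjamini-Hochberg p adjusted over all tested genes, and a gene is called at an adjusted p under 0.05. In the Oct4 line MERTK and GAS6 were higher and TYRO3, AXL and PROS1 lower, where 37.3% of all tested genes were called (20.1% higher, 17.2% lower). Sox2 gave higher CD36, MERTK and GAS6 and lower AXL and PROS1, against a background of 41.6% (21.7% higher, 19.9% lower). That count includes CD36, which was tested only because of its Sox2 libraries and GFP replicate 1. With Klf4, TYRO3 and AXL were higher and MFGE8, MERTK and PROS1 lower, against 33.5% (17.6% higher, 16.0% lower). OSK gave higher MERTK and AXL and lower MFGE8, GAS6 and PROS1, against 39.7% (19.7% higher, 20.0% lower). The median change of the 7 members was −0.05, −0.19, 0.12 and −0.16 in the Oct4, Sox2, Klf4 and OSK lines, beside −0.02, −0.02, −0.02 and −0.01 over all tested genes. The Sox2 count was 3 without GFP replicate 2 or 3 or without any 1 library of Oct4, Sox2 or OSK, because the MERTK and AXL calls lay at the threshold, and the OSK count was 3 without OSK replicate 2. All 4 comparisons share the GFP libraries. In bulk RNA, a change in the share of cells that express a gene and a change in RNA per cell cannot be told apart.

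**Figure D1:**
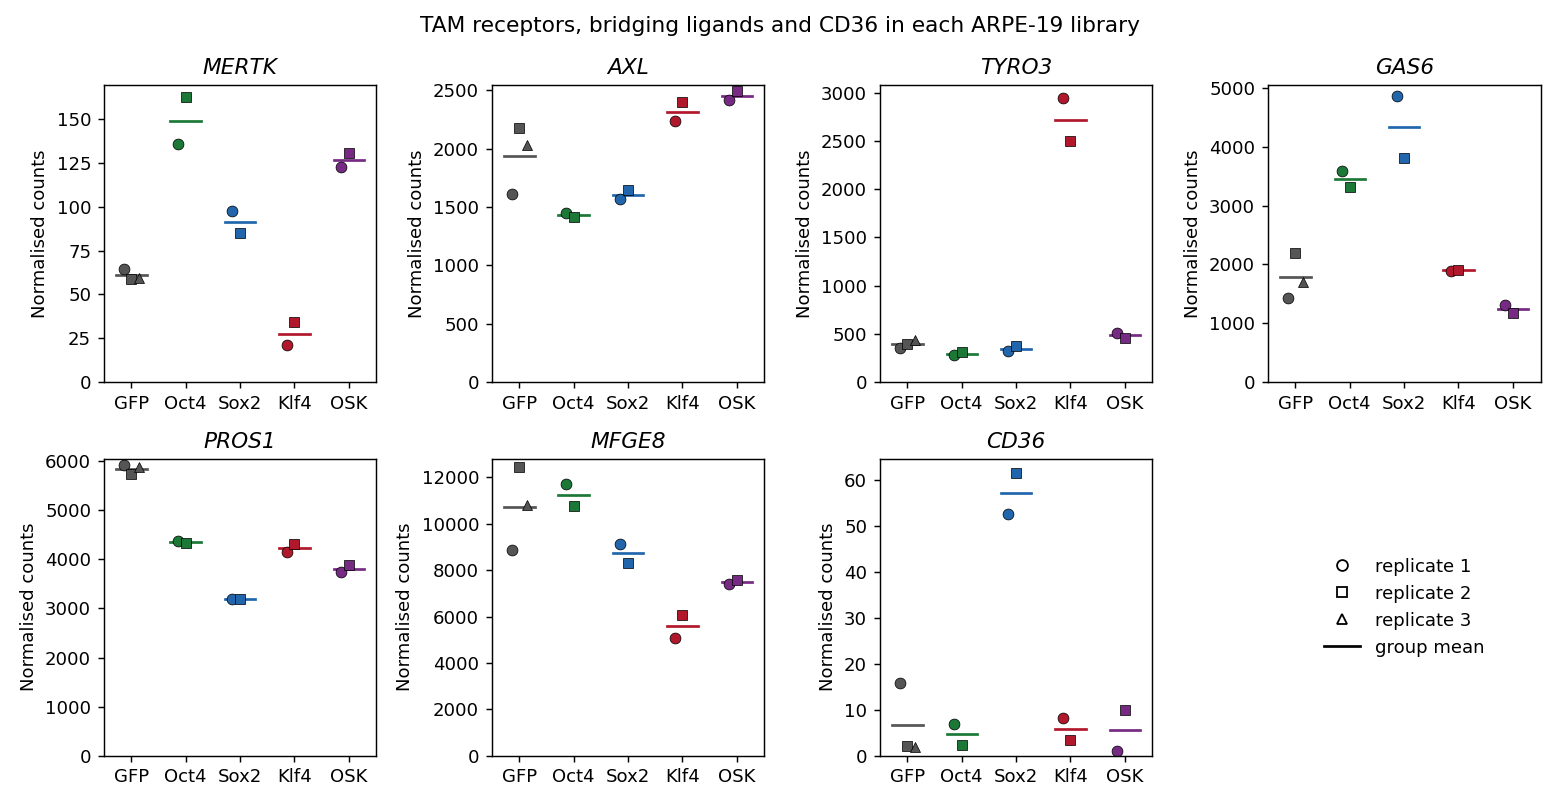
Normalised counts (vertical axis of each panel, linear, from 0) of the 7 members in each of the 11 libraries, grouped by construct; symbols give the replicate and lines the group mean. TYRO3 stands at 2494 and 2947 in Klf4 with no other library above 509.49, CD36 stands out in Sox2, and PROS1 is highest in the 3 GFP libraries.

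MERTK, the receptor that triggers ingestion in the RPE, passed the test in all 4 factor lines, as AXL and PROS1 did. It measured 64.55, 58.68 and 59.3 normalised counts in GFP, 135.86 and 162.52 in Oct4, 97.61 and 84.77 in Sox2, 20.82 and 34.28 in Klf4, and 122.5 and 130.89 in OSK. No library of a factor line overlapped the GFP range: Oct4, Sox2 and OSK lay above it and Klf4 below. The change was 1.28 (SE 0.22, adjusted p = 0.000216) with Oct4 and 1.05 (SE 0.22, adjusted p = 0.00107) with OSK. With Klf4 it fell by 1.16 (SE 0.22, adjusted p = 0.00062), a level resting on 18 and 30 reads. The Sox2 difference of 0.57 (SE 0.22, adjusted p = 0.0447) did not pass with DESeq2 (adjusted p = 0.0934), nor without either Sox2 library (adjusted p = 0.24 without replicate 1 and 0.0856 without replicate 2). In the order of means, Oct4 and OSK differed by −0.23 (95% interval −0.74 to 0.28, adjusted p = 0.488) and OSK and Sox2 by 0.47 (−0.03 to 0.98, adjusted p = 0.131). The OSK line kept MERTK far above the Klf4 line, by 2.20 (SE 0.24, adjusted p = 4.76e-06), although both carry Klf4.

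AXL, the receptor tied to GAS6, was the most abundant TAM receptor per length, and its largest change from GFP was the smallest of the 3 receptors. Its GFP values were 1611.7, 2180.09 and 2032.6. Oct4 gave 1452.63 and 1411.21, Sox2 1567.38 and 1643.13, Klf4 2240.41 and 2398.37, and OSK 2418.47 and 2493.47. The Oct4 libraries lay below every GFP library and the Klf4 and OSK libraries above every one, while the Sox2 libraries overlapped GFP replicate 1. AXL fell by 0.43 with Oct4 (SE 0.10, adjusted p = 0.00265) and rose by 0.35 with OSK (SE 0.10, adjusted p = 0.00933). The OSK change was 0.22 without GFP replicate 1, and it lost its call without OSK replicate 2 (0.33, adjusted p = 0.0808). The changes of −0.26 with Sox2 (adjusted p = 0.0418) and 0.27 with Klf4 (adjusted p = 0.0466) lay at the threshold. By edgeR they had adjusted p = 0.0636 and 0.0681. Without GFP replicate 1 the Klf4 change was 0.14 (adjusted p = 0.119), and the Sox2 change was −0.39 and kept its call. Differences among the factor lines were larger, such as OSK over Oct4 (0.78, SE 0.11, adjusted p = 2.37e-05) and Klf4 over Sox2 (0.53, SE 0.11, adjusted p = 0.000819). OSK and Klf4 differed by 0.08 (95% interval −0.15 to 0.31, adjusted p = 0.657), and Sox2 and Oct4 by 0.16 (−0.06 to 0.39, adjusted p = 0.273).

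TYRO3, a receptor for both GAS6 and protein S, gave the largest change from GFP among the TAM receptors. It measured 356.5, 394.54 and 436.46 in GFP and 2947.12 and 2494.35 in the Klf4 line. The other libraries stayed far below the Klf4 level, at 274.04 and 309.02 in Oct4, 319.76 and 372.47 in Sox2 and 509.49 and 455.36 in OSK. The Oct4 libraries lay below the GFP range and the OSK libraries above it. The Klf4 change was 2.78 (SE 0.11, adjusted p = 5.22e-11), 6.86-fold. In the OSK line, where KLF4 RNA stood at 24202 and 24470 against 22142 and 24205 in the Klf4 line, TYRO3 was lower than with Klf4 alone by 2.49 (SE 0.12, adjusted p = 1.34e-09). Its OSK difference from GFP was 0.29 (95% interval 0.05 to 0.52, adjusted p = 0.0515), which passed without GFP replicate 3 (0.36, adjusted p = 0.0276). With Oct4 TYRO3 fell by 0.44 (SE 0.11, adjusted p = 0.00551), a call lost without Oct4 replicate 1 (−0.35, adjusted p = 0.0801). Sox2 differed from GFP by −0.19 (95% interval −0.43 to 0.04, adjusted p = 0.188) and from Oct4 by 0.25 (−0.01 to 0.50, adjusted p = 0.143). The processed pseudogene TYRO3P, which shares sequence with TYRO3, had at most 13.01 normalised counts in any library.

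Set per length of exon, so that genes can be compared, the receptor mix in ARPE-19 was dominated by AXL. AXL held 88.4% ± 1.31 of the summed per-kilobase receptor level in GFP (SD, n = 3), TYRO3 8.55% ± 0.785 and MERTK 3.10% ± 0.635. With Klf4 the TYRO3 share was 35.3% ± 3.87 (SD, n = 2), AXL held 63.9% ± 3.58 and MERTK 0.833% ± 0.294. With Oct4 MERTK reached its highest share, 9.44% ± 1.18 (SD, n = 2), beside 82.6% ± 1.83 for AXL and 7.92% ± 0.658 for TYRO3, the 1 line where MERTK was above TYRO3. OSK libraries stayed near the GFP mix with 87.0% ± 0.599 AXL, 8.06% ± 0.757 TYRO3 and 4.92% ± 0.158 MERTK, and Sox2 gave 85.9% ± 0.0543, 8.71% ± 0.654 and 5.36% ± 0.709. The summed receptor level was 426 ± 59.1 normalised counts per kilobase in GFP, 336 ± 0.589 in Oct4, 362 ± 11.9 in Sox2, 704 ± 5.55 in Klf4 and 548 ± 8.06 in OSK. Both Klf4 libraries lay above all others, and both OSK libraries above every GFP library. These shares depend on the exon length assumed, and the TYRO3 share in Klf4 was 40.0% with the longest transcript of each gene.

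**Figure D2:**
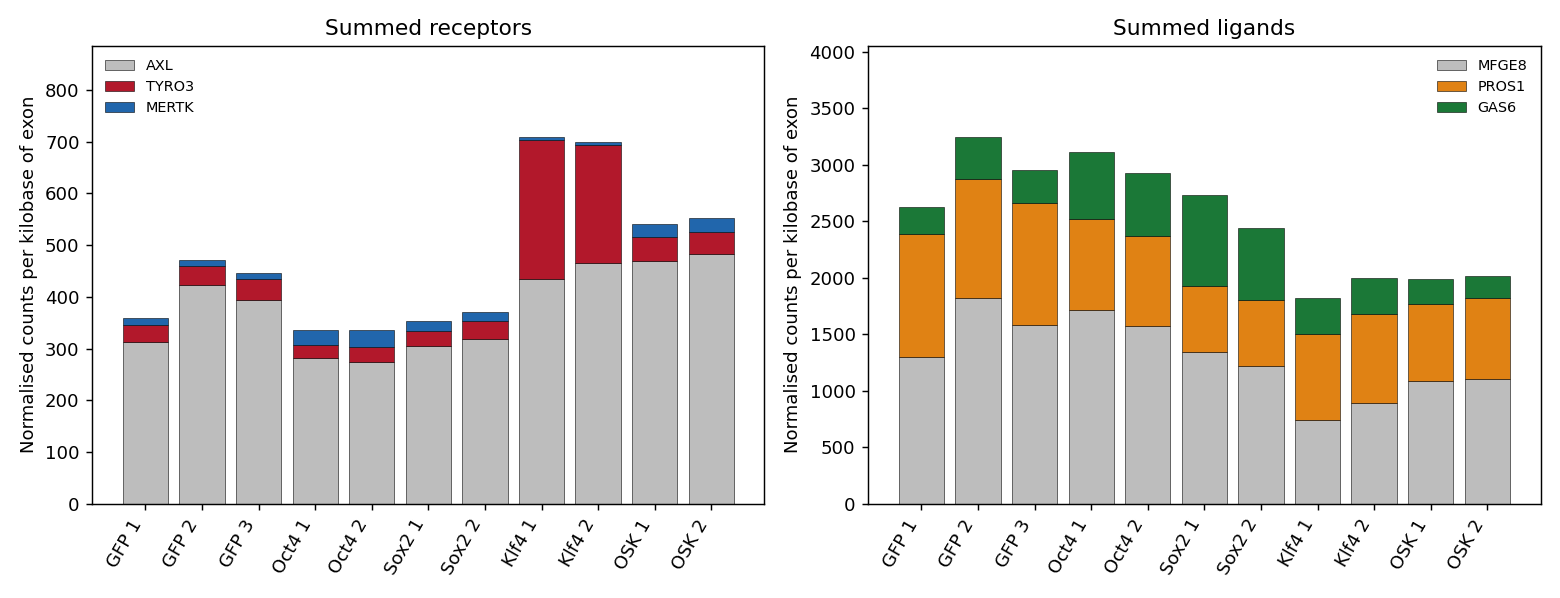
Normalised counts per kilobase of union exon (vertical axes, linear, from 0) for each of the 11 libraries, stacked by gene, with receptors on the left and ligands on the right. TYRO3 fills 35.3% of the receptor bar on average in Klf4 against 8.55% in GFP, and GAS6 fills 27.8% of the ligand bar in Sox2 against 10.0% in GFP.

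GAS6, the ligand of all TAM receptors, rose with Oct4 and with Sox2 but not when both were expressed together with Klf4. It measured 1430.97, 2195.27 and 1705.02 in GFP, 3584.56 and 3318.01 in Oct4, 4865.96 and 3805.15 in Sox2, 1879.54 and 1910.47 in Klf4, and 1312.76 and 1168.09 in OSK. The Oct4 and Sox2 libraries were all above the GFP range, Klf4 lay inside it and OSK below it. The change was 0.98 with Oct4 (SE 0.14, adjusted p = 3e-05) and 1.30 with Sox2 (SE 0.14, adjusted p = 1.13e-06). OSK was lower than GFP by 0.50 (log2 change −0.50, SE 0.14, adjusted p = 0.00794), a call lost without OSK replicate 2 (−0.41, adjusted p = 0.108). Without GFP replicate 1 and OSK replicate 1, the libraries that stand apart, the OSK change from GFP was −0.73. Against Sox2 alone, OSK was lower by 1.80 (log2 difference −1.80, SE 0.15, adjusted p = 8.66e-08), and against Oct4 alone the difference was −1.48 (SE 0.15, adjusted p = 8.06e-07). Klf4 differed from GFP by 0.12 (95% interval −0.17 to 0.40, adjusted p = 0.564), and Sox2 from Oct4 by 0.32 (0.00 to 0.64, adjusted p = 0.117).

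The divergent long noncoding gene GAS6-DT starts 101 bases from GAS6 in RefSeq, inside the GAS6 stretch printed above. It and GAS6-AS1, an antisense gene that overlaps GAS6, were chosen after their values were seen. GAS6-DT measured 30.78, 37.43 and 41.8 in GFP, 85.93 and 57.23 in Oct4, 99.85 and 84.77 in Sox2, 18.51 and 13.71 in Klf4, and 17.34 and 9.9 in OSK. It was higher with Oct4 (0.93, SE 0.32, adjusted p = 0.0314) and Sox2 (1.31, SE 0.32, adjusted p = 0.00332) and lower with OSK (−1.40, SE 0.32, adjusted p = 0.00217). These directions match those of GAS6, but with Klf4 GAS6-DT was lower (−1.14, SE 0.32, adjusted p = 0.0112) where GAS6 gave 0.12. GAS6-AS1 averaged 25.4 ± 7.82 in GFP (SD, n = 3), 63.9 ± 6.68 in Oct4, 50.3 ± 13.0 in Sox2, 44.3 ± 15.8 in Klf4 and 19.1 ± 0.969 in OSK (SD, n = 2). Whether the counting used strand is not given in the sources used here, so reads of GAS6-AS1 and GAS6 cannot be told apart where they overlap.

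PROS1, which encodes protein S, was the member that fell in every factor line. Its GFP values were 5915.53, 5746.14 and 5886.87. Oct4 gave 4366.03 and 4333.21, Sox2 3195.35 and 3202.35, Klf4 4148.87 and 4313.41, and OSK 3735.56 and 3887.04. Every library of a factor line was below every GFP library. PROS1 fell by 0.43 with Oct4 (SE 0.06, adjusted p = 2.57e-05), by 0.87 with Sox2 (SE 0.06, adjusted p = 7.08e-09), by 0.47 with Klf4 (SE 0.06, adjusted p = 1.25e-05) and by 0.62 with OSK (SE 0.06, adjusted p = 4.23e-07). Sox2 was lower than Oct4 (−0.44, SE 0.06, adjusted p = 5e-05) and lower than OSK (OSK minus Sox2 0.25, SE 0.06, adjusted p = 0.00482). Oct4 and Klf4 did not differ past the threshold (−0.04, 95% interval −0.18 to 0.10, adjusted p = 0.664). The pseudogene PROS2P, a near copy, had at most 11.13 normalised counts in any library.

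MFGE8, the bridge to αv integrins, was by group mean the most abundant member per length and fell with Klf4 and with OSK. It measured 8859.89, 12438.16 and 10822.08 in GFP and 5077.65 and 6079.91 in Klf4. Oct4 gave 11730.23 and 10765.5, Sox2 9142.88 and 8312.41, and OSK 7397.41 and 7555.19. Klf4 and OSK libraries were below the GFP range, and the Oct4 libraries lay within it. MFGE8 fell by 0.93 with Klf4 (SE 0.11, adjusted p = 9.53e-06) and by 0.50 with OSK (SE 0.11, adjusted p = 0.00201). OSK stood between Klf4 and Oct4, above Klf4 by 0.43 (SE 0.12, adjusted p = 0.0211) and below Oct4 (−0.59, SE 0.12, adjusted p = 0.0012). The call against Klf4 did not pass without either OSK library (adjusted p = 0.0927 and 0.13) or without Klf4 replicate 1 (adjusted p = 0.237). The Sox2 difference of −0.28 (95% interval −0.52 to −0.04, adjusted p = 0.0575) passed without GFP replicate 1 (−0.41, adjusted p = 0.000482) and by DESeq2 (adjusted p = 0.0209). Oct4 differed from GFP by 0.08 (95% interval −0.16 to 0.32, adjusted p = 0.606).

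Per length, MFGE8 was by group mean the largest of the ligands in every line, and the shares of PROS1 and GAS6 varied between lines. In GFP, MFGE8 held 53.1% ± 3.39 of the summed ligand level, PROS1 36.9% ± 4.45 and GAS6 10.0% ± 1.14 (SD, n = 3). GAS6 held 19.0% ± 0.186 with Oct4, 27.8% ± 2.57 with Sox2, 16.6% ± 0.926 with Klf4 and 10.3% ± 0.95 with OSK (SD, n = 2). PROS1 held 26.5% ± 1.05, 22.8% ± 1.89, 40.8% ± 1.63 and 35.0% ± 0.652 in the same order. The Klf4 libraries disagreed on whether MFGE8 or PROS1 was the larger. PROS1 held 41.9% and MFGE8 40.9% in Klf4 replicate 1, against 39.6% and 44.5% in replicate 2. With the longest transcript as length, MFGE8 was above PROS1 in each Klf4 library. In the Sox2 line GAS6, at 722 ± 125 normalised counts per kilobase, was above PROS1, at 588 ± 0.909, while in every other line PROS1 was the higher. With the longest transcript as length GAS6 was also above PROS1 in Oct4, at 1304 against 1214. The summed ligand level was 2936 ± 310 normalised counts per kilobase in GFP, 3019 ± 135 in Oct4, 2586 ± 210 in Sox2, 1909 ± 129 in Klf4 and 2000.1 ± 19.0 in OSK. Klf4 and OSK libraries were thus below every GFP library for the ligands and above every GFP library for the receptors. MFGE8 does not bind TAM receptors, so the sum describes RNA and not a pool of 1 receptor's ligands.

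CD36, the scavenger receptor, was close to absent except with Sox2. It measured 15.89, 2.02 and 1.94 normalised counts in GFP, from 16, 2 and 2 reads. Sox2 gave 52.73 and 61.65, from 47 and 72 reads. The remaining libraries had 6.97 and 2.29 in Oct4, 8.1 and 3.43 in Klf4, and 1.08 and 9.9 in OSK, from 1 to 9 reads each. Only the 2 Sox2 libraries lay above the GFP range. The Sox2 change was 3.45 (SE 0.86, adjusted p = 0.0041 by limma), and the ratio of means was 8.64. CD36 passed the filter only through the 2 Sox2 libraries and GFP replicate 1, so this p-value is not independent of that selection. GFP replicate 1, which stood apart in its read distribution, held most of the GFP reads. Without it the change was 4.28. OSK was lower than Sox2 (−3.61, SE 0.94, adjusted p = 0.00592), a call lost without OSK replicate 1 (−2.41, adjusted p = 0.0991). Oct4, Klf4 and OSK differed from GFP by −0.05, 0.26 and −0.16 with 95% intervals of −1.88 to 1.78, −1.57 to 2.09 and −1.99 to 1.67, so changes within those intervals were not detectable at this depth. Without both libraries that stand apart the OSK difference was 1.87 (adjusted p = 0.0608). Endothelial cells also express CD36. The 6 endothelial markers summed to 714 to 896 in Sox2 and 1092 to 1367 in GFP, with CDH5, TEK and ERG too low to test. KDR made up most of that sum, at 774 ± 119 in Sox2 (SD, n = 2) and 1159 ± 65.6 in GFP (SD, n = 3), and it fell by 0.59 (adjusted p = 9e-05). The other tested endothelial markers gave positive differences that did not pass, 2.48 for PECAM1 (adjusted p = 0.11) and 1.23 for VWF (adjusted p = 0.436), so the list's median in Sox2 was 1.23. PECAM1 had 12.34 and 17.12 normalised counts in Sox2 and 0 to 20.85 in GFP, and the part of these markers in the CD36 result was not tested. Macrophage markers summed to 51.6 to 71.1 in Sox2 and 187 to 206 in GFP. CSF1R made up most of the mean sum, at 57.5 ± 13.1 in Sox2 (SD, n = 2) and 158 ± 55.1 in GFP (SD, n = 3). Only 2 of the 8 macrophage markers were tested, so the sum mainly follows CSF1R.

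**Figure D3:**
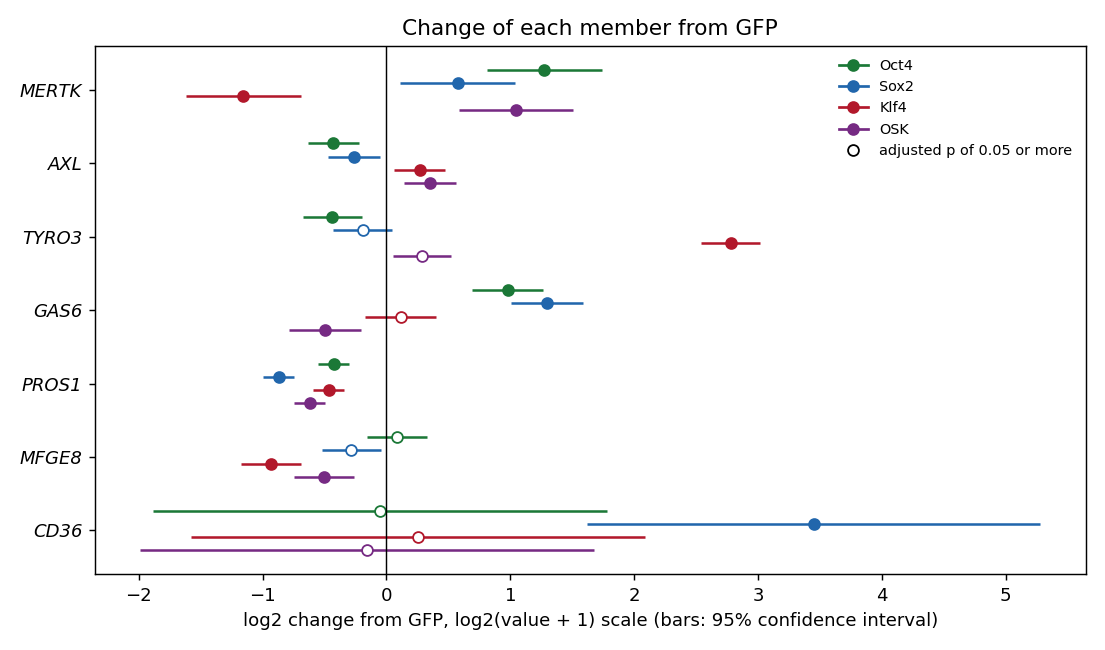
Log2 change of each member from GFP (horizontal axis, log2(normalised count + 1) scale) for the 4 factor lines; bars are 95% confidence intervals from limma and open points have an adjusted p of 0.05 or more. Every PROS1 point lies left of 0, MERTK lies left of 0 only with Klf4, and the CD36 bars are the widest.

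Between factor lines the members differed as often. Counts below that include CD36 hold a gene that passed the filter only through its Sox2 libraries and GFP replicate 1. OSK differed from Oct4 in 5 members (TYRO3 and AXL higher, MFGE8, GAS6 and PROS1 lower), where 40.3% of all tested genes were called. The PROS1 difference there (−0.19, adjusted p = 0.0258) lost its call by edgeR (adjusted p = 0.0588), without either Oct4 library, without either OSK library (adjusted p = 0.0551 to 0.156) and without GFP 1 and OSK 1 together. Against Sox2 it differed in 5 (TYRO3, AXL and PROS1 higher, CD36 and GAS6 lower), where 40.5% were called, and in 3 without OSK replicate 1. Against Klf4 it differed in 4 (MFGE8 and MERTK higher, TYRO3 and GAS6 lower), against a background of 21.5%, and in 2 without OSK replicate 2. Sox2 differed from Oct4 in 4 (CD36 higher, MFGE8, MERTK and PROS1 lower), with 33.4% called overall. Several of those calls rest on single libraries: the count was 1 without Oct4 replicate 2 or either Sox2 library and 2 without Oct4 replicate 1. Klf4 differed from Oct4 in 5 (TYRO3 and AXL higher, MFGE8, MERTK and GAS6 lower), with 41.7% called. All 7 differed between Klf4 and Sox2, where 40.8% of all tested genes were called: TYRO3 (2.97, SE 0.12, adjusted p = 2.28e-11), AXL and PROS1 (0.40, SE 0.06, adjusted p = 9.04e-05) were higher with Klf4, and CD36, MFGE8, MERTK (−1.73, SE 0.24, adjusted p = 2.13e-05) and GAS6 (−1.18, SE 0.15, adjusted p = 8.26e-06) were higher with Sox2. The CD36 difference (−3.19, adjusted p = 0.0126) lost its call without either Sox2 library (adjusted p = 0.0615 and 0.079) or without Klf4 replicate 2 (adjusted p = 0.0963).

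The OSK line was then compared with the sum of the changes in the 3 single-factor lines, on the log2 scale. The members departed from that sum in 5 of 7 cases, where 35.9% of all tested genes did. For GAS6 the single changes summed to 2.39 and OSK gave −0.50, a difference of −2.89 (SE 0.27, adjusted p = 6.51e-07). For TYRO3 the sum was 2.15 and OSK gave 0.29, a difference of −1.86 (SE 0.22, adjusted p = 8.08e-06). PROS1 had a sum of −1.77 and an OSK change of −0.62, so it lay above the sum by 1.15 (SE 0.12, adjusted p = 1.52e-06). AXL lay above its sum of −0.42 by 0.77 (SE 0.20, adjusted p = 0.00569). MFGE8 lay above its sum of −1.13 by 0.63 (SE 0.23, adjusted p = 0.0416), a call lost without any 1 of the libraries GFP 2, GFP 3, Oct4 1, Oct4 2, Sox2 1, Sox2 2, Klf4 1, OSK 1 or OSK 2 (0.40 to 0.70). MERTK was 0.35 above its sum of 0.69 (95% interval −0.57 to 1.28, adjusted p = 0.57). The CD36 difference was −3.81 (95% interval −7.47 to −0.15, adjusted p = 0.0994). It was −5.01 without OSK replicate 2, and it passed without GFP replicate 1 (−5.48, adjusted p = 0.00725). The CD36 sum of 3.65 is mostly its Sox2 change of 3.45. CD36 was tested only because of its Sox2 libraries and GFP replicate 1, so this pass is not independent of that selection. POU5F1 and SOX2 RNA were lower in OSK than in the single-factor lines, as given above, and the part of that in these differences was not tested.

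**Figure D4:**
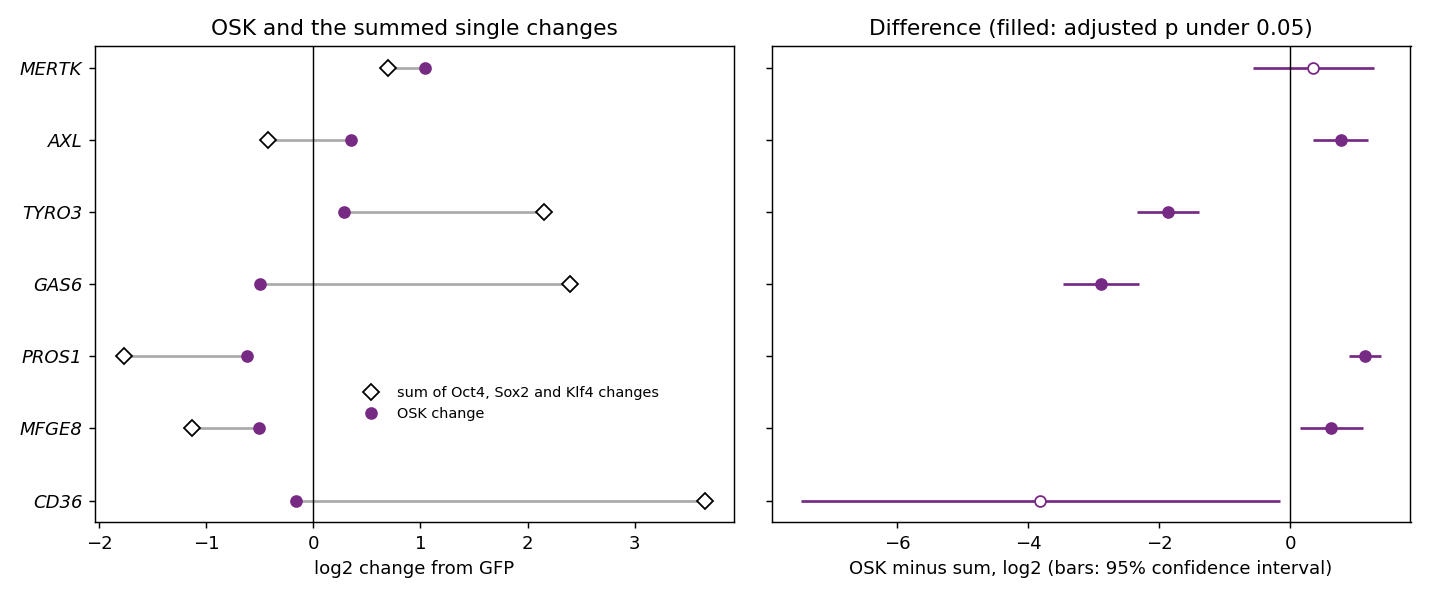
Left, OSK change from GFP (filled) and the sum of the Oct4, Sox2 and Klf4 changes (open diamonds), in log2 units on the horizontal axis; right, OSK minus that sum with its 95% confidence interval, filled where the adjusted p is under 0.05. GAS6 and TYRO3 lie far below their sums (−2.89 and −1.86) and PROS1 above its sum (1.15).

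Other genes of the uptake pathway were counted by list. Those named from each list are mainly drawn from its largest called changes, so they were picked by their values, and not all of the largest are named. Each list's counts are read against the shares called over all tested genes, 37.3% with Oct4, 41.6% with Sox2, 33.5% with Klf4 and 39.7% with OSK. Of 19 other engulfment receptors and don't-eat-me genes, 15 were tested. With Oct4 6 rose and 1 fell, with Sox2 5 and 3, with Klf4 3 and 6, and with OSK 1 and 3 (4 of 15, below the background), with median changes of 0.35, −0.06, −0.24 and −0.20. The integrin chains that receive MFGE8 rose in the Oct4 and Sox2 lines: ITGAV by 0.77 and 1.22, ITGB5 by 0.35 and 0.32, and ITGB3 by 2.44 and 0.92 (SE 0.19, adjusted p = 6.9e-08 for the Oct4 change of ITGB3). For ITGB5 the range of each of these lines overlapped that of GFP (adjusted p = 0.0292 with Oct4 and 0.0384 with Sox2). All 3 chains fell in the Klf4 line, ITGAV by 0.24, ITGB5 by 0.44 and ITGB3 by 0.76. OSK gave 0.19 for ITGAV and −0.20 for ITGB3, neither past the threshold, and −0.46 for ITGB5 (adjusted p = 0.00589). SCARF1, a scavenger receptor, rose by 2.38 with Klf4 (SE 0.47, adjusted p = 0.000955) and fell by 1.29 with Sox2. SIRPA, which receives the CD47 signal against uptake, rose by 0.93 with Oct4 and fell by 0.44 with Sox2, 0.99 with Klf4 and 1.11 with OSK. CD47 itself was higher in all 4 lines, by 0.33 to 0.46. Other large called changes were −2.55 for OLR1 with Oct4, −1.76 for STAB2 with Sox2 and 1.31 for SCARB2 with Oct4. OLR1 and STAB2 were low, averaging 11.6 and 39.0 normalised counts in GFP.

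Among 9 other bridging or MERTK-binding ligands, 7 were tested, and 2 rose and 3 fell with Oct4, 3 and 3 with Sox2, 2 and 2 with Klf4, and 2 and 4 with OSK. The medians were −0.37, 0.52, 0.05 and −0.62. EDIL3, a relative of MFGE8 that also bridges phosphatidylserine to αv integrins, rose by 2.07 with Oct4, 3.14 with Sox2 (SE 0.13, adjusted p = 2.81e-11) and 1.94 with OSK, and gave 0.08 with Klf4. THBS1, a thrombospondin that binds CD36, rose by 1.35 with Oct4 and 1.51 with Sox2 and fell by 0.61 with Klf4 and 1.29 with OSK. VTN, an αv integrin ligand, fell by 1.29 with Oct4, 3.18 with Sox2 and 0.88 with OSK. LGALS3, a galectin reported to bind MERTK, rose by 0.69 with Klf4 and fell by 0.38, 0.44 and 0.62 with Oct4, Sox2 and OSK.

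Signalling genes downstream of the receptors moved in both directions, with 18 of 20 tested: 6 higher and 4 lower with Oct4, 7 and 5 with Sox2, 6 and 9 with Klf4, and 6 and 7 with OSK (medians 0.06, 0.05, −0.15 and −0.12). MYO7A, the myosin that moves ingested material and pigment granules in the RPE, fell by 2.57 with Oct4, 4.87 with Sox2 (SE 0.19, adjusted p = 1.51e-11), 0.86 with Klf4 and 1.33 with OSK. PLCG2, a phospholipase that acts downstream of receptor tyrosine kinases, fell by 1.29, 1.95, 1.04 and 1.49 in the same order. SOCS3, a feedback inhibitor of cytokine signalling that TAM receptors can induce, fell by 0.82, 2.65, 0.96 and 1.29. SOCS1, of the same family, fell by 1.89 with Klf4 and 2.03 with OSK. Other genes with large changes went up. PIK3CA rose by 1.01 with Oct4 and 1.33 with Sox2, fell by 0.28 with Klf4 and gave −0.14 with OSK, not past the threshold. ABCA1, among the largest called changes with OSK, averaged 562 in GFP, 1122 in Oct4, 1442 in Sox2, 552 in Klf4 and 1717 in OSK.

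Genes of the vitamin K cycle and of carboxylation were followed because GAS6 and protein S depend on that modification. Not all of them encode enzymes that activate Gla proteins. CALU does not, and it was among the genes higher with Sox2. Carboxylation itself was not measured. Of 6 genes tested, 4 rose and 0 fell with Oct4 (all tested genes, 20.1% and 17.2%) and likewise with Sox2 (21.7% and 19.9%), 1 rose and 1 fell with Klf4, and 2 rose and 1 fell with OSK (medians 0.25, 0.42, −0.01 and 0.16). GGCX, the carboxylase itself, rose by 0.28 with Oct4, 0.46 with Sox2 and 0.25 with OSK. FURIN, a proprotein convertase, rose by 0.65 with Oct4 and 1.30 with Sox2 (SE 0.09, adjusted p = 1.34e-08). Of 12 other Gla protein genes 4 were tested, and PRRG4, a membrane Gla protein, rose by 2.88 with Oct4 and 2.59 with Sox2, the only call in the upward direction in each of those lines. PRRG1 fell by 0.66 with Sox2, 0.75 with Klf4 and 0.51 with OSK, the only downward call in each, and Oct4 had none.

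TAM receptors are shed from the cell surface by ADAM proteases. All 5 shedding genes were tested, with 1 higher and 2 lower in Oct4, 3 and 2 in Sox2, 3 and 0 in Klf4, and 0 and 2 in OSK (medians −0.09, 0.34, 0.55 and −0.17). For these and the next counts, the share of all tested genes called ran from 33.5% in Klf4 to 41.6% in Sox2. The protease gene ADAM10 rose by 0.34, 0.64 and 0.55 with Oct4, Sox2 and Klf4. TIMP3, a metalloprotease inhibitor abundant in RPE, fell by 1.26 with Oct4, 2.34 with Sox2 (SE 0.07, adjusted p = 1.6e-12) and 0.38 with OSK and rose by 0.88 with Klf4. Of 7 phosphatidylserine exposure genes 6 were tested, with 2 higher and 1 lower in Oct4, 3 and 0 in Sox2, 3 and 2 in Klf4, and 2 and 1 in OSK (medians −0.05, 0.29, 0.06 and 0.19). The scramblase gene ANO6 rose by 1.74 with Oct4 (SE 0.09, adjusted p = 3.29e-10), 0.38 with Sox2 and 0.30 with OSK and fell by 0.56 with Klf4. In LC3-associated phagocytosis, which digests engulfed material, 10 of 11 genes were tested, with 3 higher and 1 lower in Oct4, 2 and 0 in Sox2, 2 and 1 in Klf4, and 4 and 1 in OSK (medians −0.05, 0.02, 0.03 and 0.23). ATG16L1 rose by 0.70, 0.66 and 0.95 with Oct4, Klf4 and OSK, and CYBA, a subunit of the NADPH oxidase, fell by 0.61, 0.58 and 1.03 in those lines.

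For each member, the 3 tested genes with the most similar profile were found by the root mean square (RMS) difference of centred log2 values over the 11 libraries, which share their depth and library preparation. TYRO3 was nearest to AATK, CRIP2 and DUSP7, with RMS differences of 0.23, 0.23 and 0.24 against an SD of 1.13 for TYRO3 itself. AATK measured 117.62 to 131.08 in GFP, 727.85 and 870.95 in Klf4, and 161.68 and 231.98 in OSK. MERTK was nearest to SHOX2, SPRY4 and SCN8A, each at 0.33 against its SD of 0.85, and SPRY4 fell to 76.34 and 93.7 in Klf4 from 147.96 to 213.46 in GFP. GAS6 was nearest to BICD1, PRKAB2 and ACOX3 (0.17, 0.19 and 0.19 against 0.66). AXL was nearest to ATG2A, MRPL34 and GNPTG (0.07, 0.09 and 0.09 against 0.30), PROS1 to NPM1, NARF and STK32C (0.07, 0.08 and 0.08 against 0.30), and MFGE8 to LBH, HDAC5 and DNAJB6P1 (0.11, 0.12 and 0.16 against 0.38). CD36 was nearest to the unnamed gene ENSG00000251537, TMOD1 and LINC01597 at 0.66 to 0.71 against 1.59. TMOD1 had 88.64 and 47.09 in Sox2 and 19.86 in GFP replicate 1, with at most 7.7 in every other library.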

How the data were processed

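ARPE-19 poly(A) RNA was sequenced in 11 libraries. Reads were processed with STAR 2.7.1a and featureCounts 1.6.2, per the submitters' processing notes, which name human (GRCh38) and mouse (GRCm38) builds without their roles. The annotation and strand setting are not given in the sources used here. The deposited signal values are gene counts that the authors divided by 1 factor per library. Whole reads were recovered from the step between values: 100% of values up to 200 were whole multiples within 0.0061. Depth was 15053300 to 19791775 reads. Replicate libraries differed beyond sampling noise (mean chi-square per gene 3.32 to 12.4), and each was counted as a library. The largest values, 10.3 and 12.4, were for pairs with GFP replicate 1. Such spread does not show that libraries came from separate cultures.

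R 4.3.3 with limma 3.58.1 (trend) was run on log2(value + 1) for the 18828 genes that reached 10 in 2 or more libraries, with a mean per line over all 11 libraries, 11 comparisons, 6 residual degrees of freedom, two-sided p-values and Benjamini-Hochberg adjustment at 0.05. These fold changes understate changes of low genes. The planned count test gave way to limma since the values are not raw counts. edgeR 4.0.16 and DESeq2 1.42.0 on the recovered reads, other scalings, pseudocounts and filters, a replicate block and leaving out libraries were tried. Scripts were tested on simulated data. Lengths and positions come from GENCODE on GRCh38. Members and lists were chosen with earlier results of these data known. Genes named are the members, at most 3 per list and comparison with the largest called change, list genes named in the background, and the 3 most similar genes per member. The genes GAS6-DT, GAS6-AS1, TYRO3P and PROS2P were added after seeing values.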

Additional observations from a re-analysis of the deposited data

How the results depend on the processing

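The 77 pairs of a member and a comparison were recomputed under each alternative setting, which gave 1687 values: 1550 kept direction and call, 96 kept the direction but lost the call, 14 gained a call and 27 changed sign. No called value changed sign, and 47 pairs kept direction and call in every alternative run. The scalings moved the median of all genes by less than 0.1 (log2). Of 7 members, the number called for Sox2 against GFP (5) was 3 with no filter and 3 with the replicate block, and 3 to 6 leaving out 1 library. That range was 3 to 6 for OSK against GFP, 3 to 6 for OSK against Sox2, 2 to 4 for OSK against Klf4 and 1 to 5 for Sox2 against Oct4, which had 2 with no filter. The TYRO3 share of receptors in Klf4 was 40.0% with the longest transcript as length. A fit with only the compared groups was not run for OSK against the sum, which uses all of them.

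Sign changes were limited to differences that were not called. Leaving out 1 library, MFGE8 in Oct4 against GFP ranged from −0.046 to 0.20 and GAS6 in Klf4 against GFP from −0.030 to 0.28, and without GFP 1 and OSK 1 they were −0.046 and −0.030. CD36 ranged leaving out 1 library from −0.69 to 0.78 in Oct4 against GFP, −0.26 to 1.09 in Klf4 against GFP, −1.35 to 1.04 in OSK against GFP, −1.30 to 1.09 in OSK against Oct4, −1.61 to 0.78 in OSK against Klf4, and −0.33 to 0.95 in Klf4 against Oct4. Without GFP 1 and OSK 1, CD36 gave 0.78 in Oct4 and 1.87 in OSK against GFP, 1.09 in OSK against Oct4 and 0.78 in OSK against Klf4. CD36 in Klf4 against GFP was −0.19 by edgeR, −0.20 by DESeq2 and −0.17 with the replicate block, and in OSK against Oct4 it was 0.25 by edgeR, 0.25 by DESeq2 and 0.027 with a pseudocount of 5. The cause of these changes was not tested, and CD36 rests on 1 to 16 reads in all libraries other than Sox2.

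Replicate numbers are not said to pair libraries, and the differences between replicates 1 and 2 correlated across genes at −0.07 to 0.04 between lines, except 0.41 between GFP and OSK. In the replicate block fit GFP rests on replicates 1 and 2, since replicate 3 exists only there. With the block, MERTK in Sox2 against GFP (adjusted p = 0.0999), AXL in Sox2 against GFP (adjusted p = 0.1) and MFGE8 in OSK against the sum (adjusted p = 0.0908) lost their calls, and TYRO3 in OSK against GFP gained one (adjusted p = 0.0363). With 2 libraries in most lines, a line left with 1 is assumed to vary like the others.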
